A study of Mus musculus with 24 samples.

Results

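Cytochrome P450 enzymes and epoxide hydrolases were followed through 8 genes, Cyp1a1, Cyp1b1, Cyp2e1, Cyp2f2, Cyp2j6, Cyp4b1, Ephx1 and Ephx2, out of 18539 gene symbols with a probe on the arrays. The members were taken by name, with results of these arrays already known, and each was read from the probe with the highest signal in a tissue. The members were thus chosen by name and the probes selected on brightness, so levels are given as a description. Male mice were fed from 8 weeks of age for 8 weeks. RNA came from CD105+/CD45- cells sorted from the aorta or from leg skeletal muscle, and each sample was a pool of 3 mice. WT groups were C57BL/6 mice. KO groups were homozygous for B6.Cg-Lgals3tm1Poi/J, a germline deletion within the galectin-3 gene, so every cell type of the mouse carries it. The high-fat diet (HFD) held 60% of calories as fat and was bought from BioServ, and the chow diet held 12% and was bought from LabDiet. Fat content and any other difference between the 2 products cannot be told apart. Each of the 8 groups of strain, diet and tissue had 3 arrays from 3 numbered experiments, 24 arrays in all. P-values here measure the spread between these pools.

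Cytochrome P450s are haem enzymes that insert an oxygen atom into lipids, hormones and foreign chemicals, drawing electrons from P450 oxidoreductase. In blood vessels the CYP2J and CYP2C enzymes are known for turning arachidonic acid into epoxyeicosatrienoic acids, which relax vascular smooth muscle. Epoxide hydrolases open such epoxides to diols: Ephx2 encodes the soluble enzyme that acts on fatty acid epoxides, and Ephx1 the microsomal enzyme best known for epoxides of foreign chemicals. Cyp1a1 and Cyp1b1 are classical targets of the aryl hydrocarbon receptor, a ligand-activated transcription factor.

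Levels are log2 values of the processed signal relative to the 75th percentile of the same array, so 0 stands for a bright probe and -6 for a reading near background. The lowest reading called well above background lay between -7.28 and -5.33 on the 24 arrays. The 75th percentile itself lay between 2390 and 5938 intensity units, and 59.5% to 75.7% of spots were well above background. All 8 endothelial markers examined, among them Pecam1, Cdh5 and Kdr, were well above background on all 24 arrays. The probe for Lgals3, the deleted gene, was well above background on all 24 arrays and in 11 of 12 comparisons within a tissue, diet and experiment the KO reading exceeded the WT reading, on average over all 12 by 1.28 ± 1.19 (SD) log2. Where that probe lies relative to the deleted part was not analysed here, so it checks nothing about the labels. On 34 probes chosen for their strain difference in experiments 2 and 3, where 0 is the WT level and 1 the KO level, the chow arrays of experiment 1 stood at 0.03 and 0.08 for WT and at 1.02 and 0.91 for KO in aorta and muscle. The HFD arrays of experiment 1 stood between the strains, at 0.20 and 0.45 for the arrays labelled WT and 0.37 and 0.38 for those labelled KO. The main diet and strain values are therefore also given without experiment 1. The 8 genes are read on all arrays in the plot of levels.

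**Figure D1:**
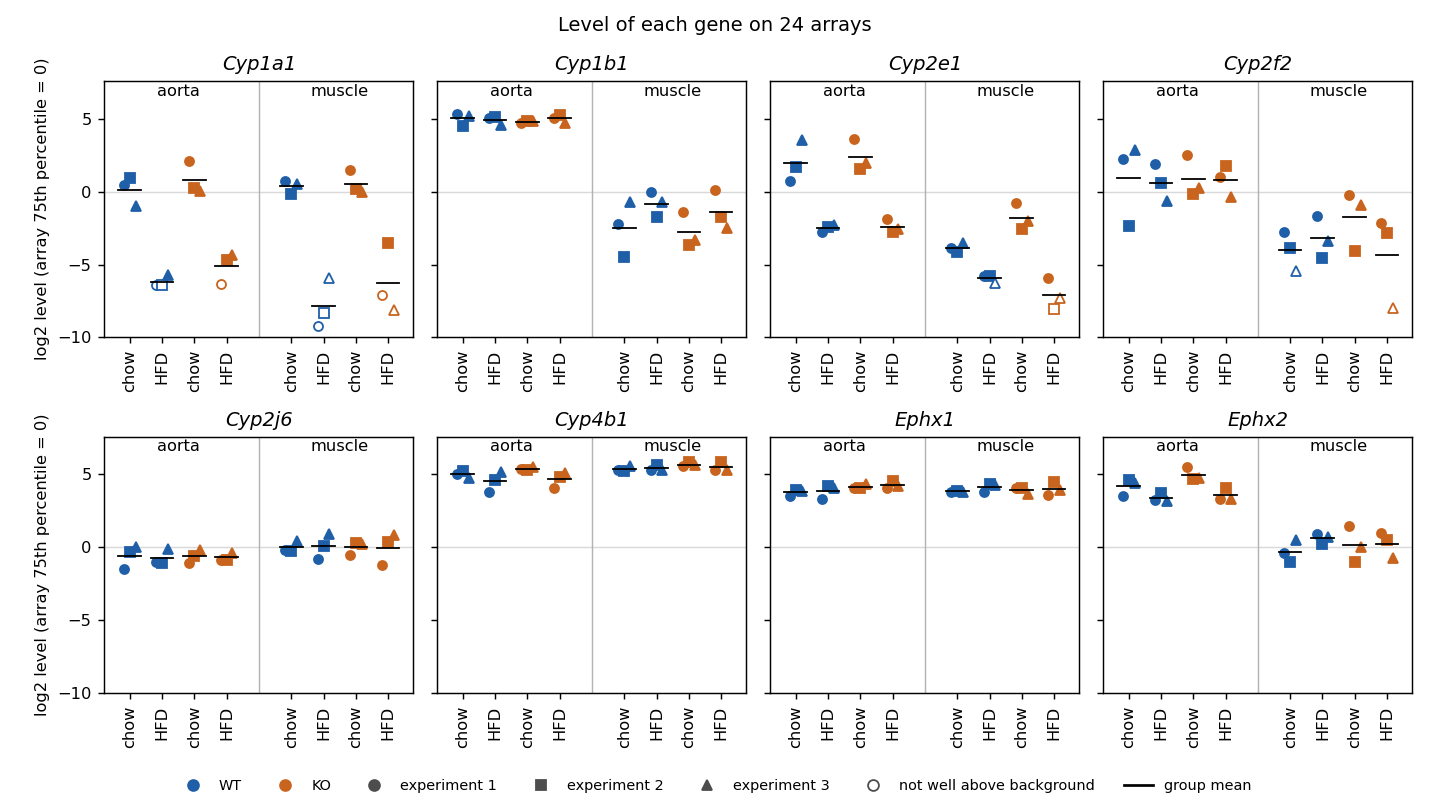
Log2 level of each of the 8 genes on the 24 arrays, relative to the 75th percentile of the array. Columns are the 4 groups of strain and diet in aorta and muscle (blue WT, orange KO), symbols are experiments, open symbols are readings not well above background, and black bars are means of 3 arrays. Cyp1a1 and Cyp2e1 lie lower on HFD than on chow in both tissues without overlap, Cyp1b1 and Ephx2 lie higher in aorta than in muscle without overlap, and Cyp2j6, Cyp4b1 and Ephx1 keep a narrow range.

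Cyp1a1, which oxidizes planar aromatic hydrocarbons, had the largest measured mean fall on HFD of the 27387 probes tested over both tissues. That rank rests partly on HFD readings not well above background, kept as measured. Cyp1a1 entered the tests through its chow groups alone, as no HFD group had all 3 arrays well above background. It was lower on HFD in 12 of 12 pairs of arrays matched for tissue, strain and experiment, by 6.80 log2 on average and by at least 3.69 in each pair. In aorta the WT chow arrays read 0.46, 0.93 and -1.01 in experiments 1, 2 and 3, and the WT HFD arrays -6.43, -6.41 and -5.68. The KO chow arrays of aorta read 2.12, 0.24 and 0.06, and the KO HFD arrays -6.35, -4.66 and -4.37. Every chow array was thus more than 3 log2 above every HFD array of the same tissue, and 3 of the 6 HFD arrays of aorta were not well above background. In muscle the WT chow arrays read 0.71, -0.15 and 0.53, and the WT HFD arrays -9.19, -8.34 and -5.92. The KO chow arrays of muscle read 1.49, 0.16 and 0.00, and the KO HFD arrays -7.11, -3.53 and -8.09. All 12 chow arrays were well above background, whereas on HFD in muscle a single array was, the KO array of experiment 2. For WT muscle, with all 3 HFD arrays not well above background, Cyp1a1 was at least 92.6-fold higher on chow (measured means 0.36 and -7.82; limma adjusted p = 0.103 for WT alone).

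Over both strains the limma estimate of the diet difference for Cyp1a1 was -7.49 (SE 0.72, adjusted p = 0.0358) in muscle, a fall, and -6.12 (SE 0.61, adjusted p = 0.0512) in aorta, just past the threshold of 0.05. The aorta value was called under normexp background correction (adjusted p = 0.0143) and without the pair block (0.00105). The muscle call was lost when dim probes were kept in the test (adjusted p = 0.11). Without experiment 1 the estimates were -5.33 in aorta and -6.60 in muscle, and no probe at all was called with 2 experiments. The fall held in each scan session: experiment 1, scanned apart from the others and with the diets at exchanged slide positions, gave mean ratios of -7.68 in aorta and -9.25 in muscle. Because most HFD readings are at background, the sizes of these estimates are set partly by the floor of the array. In these bulk samples fewer cells of a type and less RNA per cell cannot be told apart.

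Cyp1b1, the other CYP1 member here, which hydroxylates estradiol and fatty acids, did not show the Cyp1a1 pattern. Its aorta arrays read 5.36, 4.52 and 5.20 on WT chow and 5.09, 5.13 and 4.55 on WT HFD. On KO chow they read 4.70, 4.84 and 4.87, and on KO HFD 5.09, 5.29 and 4.71. The diets overlapped throughout, and the limma difference was 0.06 (SE 0.23, adjusted p = 0.926). In muscle WT chow arrays read -2.21, -4.45 and -0.72 and WT HFD arrays -0.02, -1.74 and -0.72. KO chow arrays of muscle read -1.37, -3.63 and -3.33 and KO HFD arrays 0.13, -1.71 and -2.49. Cyp1b1 was above its chow partner on all 6 HFD arrays of muscle, although by only 0.001 log2 in WT experiment 3, and the difference of 1.53 (SE 0.37, unadjusted p = 0.00441) was not called (adjusted p = 0.14). It was 1.37 without experiment 1. All 7 fibroblast markers tested also lay above 0 in muscle on HFD (median 0.90, 5 at unadjusted p under 0.05, 0 called), and so did 4 of 5 macrophage markers (median 1.96, 2 at unadjusted p under 0.05, 0 called), with Ptprc, which encodes CD45, at 2.97 (adjusted p = 0.103). The mean level of the 6 macrophage markers with a probe ran from -7.56 to -2.91 on WT chow, -7.52 to -3.05 on KO chow, -5.04 to -1.20 on WT HFD and -6.78 to -0.08 on KO HFD. Pericyte markers went the other way in muscle: all 5 lay below 0 on HFD, from Rgs5 at -0.94 (limma adjusted p = 0.0915) to Abcc9 at -0.43. All 5 were at unadjusted p under 0.05 and none was called. In muscle 16.4% of all probes were at unadjusted p under 0.05. In aorta, where Cyp1b1 stood at 0.06, all 7 fibroblast markers lay above 0 on HFD too (median 0.62). Of these 7, 3 were at unadjusted p under 0.05, as were 15.1% of all probes, and 0 were called. Macrophage markers in aorta lay above 0 for 3 of 6 genes (median -0.35, 3 at unadjusted p under 0.05, 0 called). Ptprc stood there at 1.22 (limma adjusted p = 0.119) and Lyz2 at -1.99 (limma adjusted p = 0.125). Pericyte markers in aorta lay above 0 for 4 of 5 genes (median 0.62, 3 at unadjusted p under 0.05, 0 called). The part of these 3 lists in the Cyp1b1 value was not tested.

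The stretches before the start sites of these genes are shown because Cyp1a1 and Cyp1b1 share a regulator but not the diet pattern, with Cyp2e1 for comparison. Each is 250 bases of RefSeq sequence (GRCm38.p6) written 5′ to 3′ in the direction of the gene, at chr9:57697363-57697612 on the plus strand, chr17:79715062-79715311 on the minus strand and chr7:140763569-140763818 on the plus strand. Capitals mark the core of the xenobiotic response element, GCGTG, or its reverse complement.
Cyp1a1: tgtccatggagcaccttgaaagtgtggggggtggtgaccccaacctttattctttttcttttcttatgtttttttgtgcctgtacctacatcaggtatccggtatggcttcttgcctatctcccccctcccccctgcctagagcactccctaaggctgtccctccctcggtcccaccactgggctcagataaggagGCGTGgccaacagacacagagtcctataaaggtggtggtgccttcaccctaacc
Cyp1b1: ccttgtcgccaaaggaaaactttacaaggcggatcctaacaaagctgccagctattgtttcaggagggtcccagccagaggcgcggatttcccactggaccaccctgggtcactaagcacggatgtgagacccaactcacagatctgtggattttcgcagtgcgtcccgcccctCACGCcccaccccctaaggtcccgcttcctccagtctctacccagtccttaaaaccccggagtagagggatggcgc
Cyp2e1: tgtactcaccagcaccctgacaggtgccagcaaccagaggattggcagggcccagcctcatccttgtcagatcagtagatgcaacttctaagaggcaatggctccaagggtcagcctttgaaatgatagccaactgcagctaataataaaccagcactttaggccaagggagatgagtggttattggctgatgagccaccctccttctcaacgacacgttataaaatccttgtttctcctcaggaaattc
The core was found 1 time before Cyp1a1, at positions -54 to -50 from the start, and 1 time before Cyp1b1, at -76 to -72 on the reverse strand. It was not found in the same window of Cyp2e1, Cyp2f2, Cyp2j6, Cyp4b1 or Ephx1. Searched on both strands, GCGTG occurs in 28.2% of 32851 promoter windows of this length, and the longer TNGCGTG, which contains it, in 4.1% and in none of the 7 genes looked up. A match of these letters is a description of the window only.

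Of 6 other genes of the aryl hydrocarbon receptor pathway, 5 lay below 0 in aorta on HFD and 3 in muscle. In aorta Ahrr, the repressor of the receptor, stood at -1.38 (SE 0.46, unadjusted p = 0.0201, adjusted p = 0.261) and Nqo1, a quinone reductase and target, at -0.76 (SE 0.21, unadjusted p = 0.0102, adjusted p = 0.226), on the same side as Cyp1a1. In muscle Ahrr stood on the other side, at 1.06 (SE 0.42, unadjusted p = 0.0421, adjusted p = 0.286), and Nqo1 at -0.17. No gene of the 6 was called by limma in either tissue (2 at unadjusted p under 0.05 in aorta, 1 in muscle, where 15.1% and 16.4% of all probes were), beside 0.0309% of all probes called in aorta and 0.288% in muscle. The list median was -0.44 in aorta and 0.03 in muscle, where the median probe stood at 0.01 and -0.01. In the comparison of tissues Tiparp, a target of the receptor, was higher in aorta by 1.51 (SE 0.22, adjusted p = 4.17e-05). The 2 CYP1 genes and this list are set side by side in the plot of the receptor pathway.

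**Figure D2:**
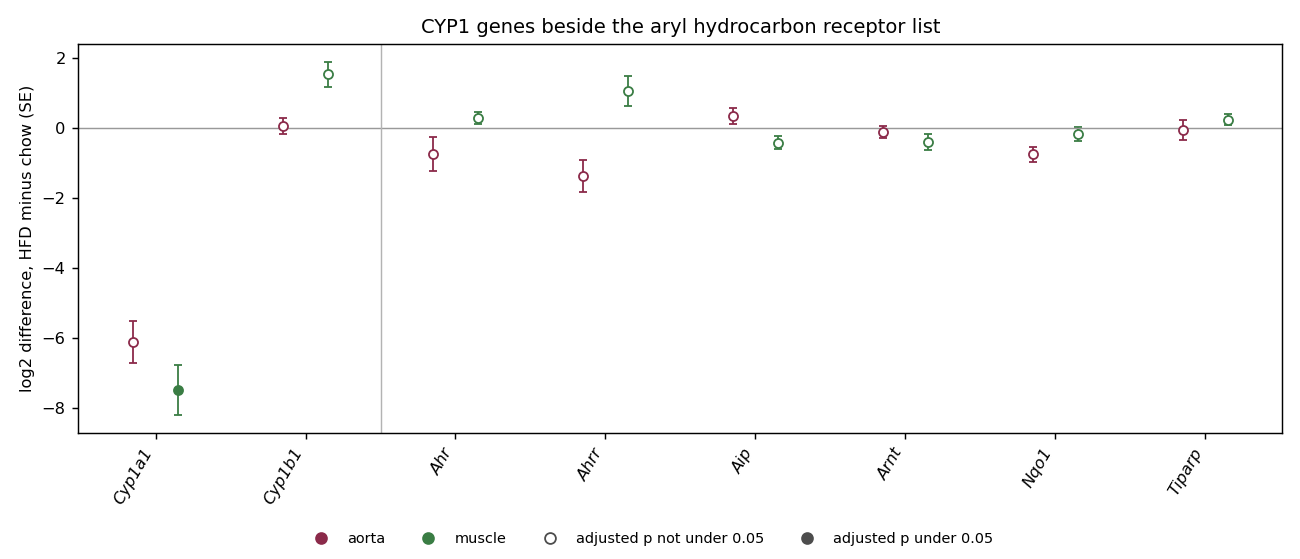
Limma estimate of the diet difference (log2, HFD minus chow, mean of WT and KO) with its SE for Cyp1a1, Cyp1b1 and the 6 genes of the aryl hydrocarbon receptor list, in aorta (purple) and muscle (green). Filled symbols have an adjusted p under 0.05. Cyp1a1 stands at -6.12 and -7.49, while Cyp1b1 and the list lie between -1.38 and 1.53.

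Cyp2e1, the ethanol- and ketone-inducible P450 found in liver and fat tissue, was the other member lower on HFD in 12 of 12 pairs, by 4.17 log2 on average and at least 1.60 in each. Only 3 of 27387 probes, 0.0110%, were lower by over 1 log2 in all 12 pairs. These were Cyp1a1, a probe without a gene symbol and Cyp2e1. They ranked 1, 2 and 3 of all probes by measured mean fall, with readings not well above background kept as measured. In aorta Cyp2e1 read 0.71, 1.69 and 3.59 on WT chow and -2.78, -2.42 and -2.28 on WT HFD. On KO chow it read 3.63, 1.57 and 1.95, and on KO HFD -1.89, -2.78 and -2.56. All 12 aorta readings were well above background, and the lowest chow array, at 0.71, stood far above the highest HFD array, at -1.89. Arrays of the 2 diets did not overlap for 1.15% of all probes tested in aorta and 1.76% in muscle.

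In muscle Cyp2e1 was dimmer and its fall was steeper in the pools labelled KO. WT chow arrays read -3.84, -4.17 and -3.53 and WT HFD arrays -5.76, -5.76 and -6.25, the last not well above background. KO chow arrays read -0.78, -2.56 and -1.998 and KO HFD arrays -5.96, -8.06 and -7.31, of which only the first was well above background. The diets did not overlap in either strain, and the KO chow arrays were all above the WT chow arrays. The WT ratios were -1.92, -1.60 and -2.72 and the KO ratios -5.17, -5.50 and -5.32. The limma difference was -5.33 (SE 0.27, adjusted p = 0.00668) in KO, the single probe called there of 25682 (0.00389%), and -2.08 (SE 0.27, adjusted p = 0.107) in WT. Cyp2e1 entered the muscle fits through its chow groups alone, as neither HFD group had all 3 arrays well above background. The sizes of these muscle estimates thus rest partly on readings near background. Over the alternatives that kept all experiments the KO value ran from -5.48 to -3.47. Without experiment 1 the KO value was -5.41 (adjusted p = 0.535). The difference of the 2 responses, -3.25 (SE 0.38, unadjusted p = 6.44e-05), did not survive adjustment over all probes (adjusted p = 0.8). It was -3.25 also without experiment 1, whose HFD arrays stood between the strains, and -2.12 under normexp.

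Over both strains Cyp2e1 fell in both tissues, with a log2 difference of -4.64 (SE 0.35, adjusted p = 0.0192) in aorta and -3.70 (SE 0.19, adjusted p = 0.0075) in muscle. It was 1 of 8 probes called in aorta and, with Cyp1a1, 1 of 74 in muscle. Of the 8 members, 1 was called lower in aorta and 2 in muscle, against 0.0232% and 0.121% of all probes in that direction, and no member was called higher, as were 0.00773% and 0.167% of all probes. All 8 members were chosen with results of these arrays known, so these counts and values are a description and not independent evidence. Cyp2e1 and Ephx2 also stand in gene groups that the study drew from these arrays. Without experiment 1 the estimates were -4.71 in aorta and -3.78 in muscle, again with no probe called. Under normexp, which lifts readings near background, the muscle estimate was -2.41. The difference between the tissues in this fall, -0.94 (SE 0.41, adjusted p = 0.53), was not called. By the rule of over 1 log2 in all 3 experiments, Cyp1a1 and Cyp2e1 were lower in both strains of both tissues and the other 6 members in none. That rule held for 0.858% of all probes in WT aorta, 1.12% in KO aorta, 0.954% in WT muscle and 0.530% in KO muscle, for 0.217% in all 6 pairs of aorta and for 0.0701% in all 6 pairs of muscle. No member was higher by over 1 log2 in all 3 experiments, as were 0.735% and 1.81% of all probes in WT and KO aorta and 0.872% and 0.459% in WT and KO muscle, with 0.193% in all 6 pairs of aorta, 0.148% in all 6 of muscle and 0.00365% in all 12. Scan session 1 gave mean ratios of -4.51 in aorta and -3.55 in muscle and session 2 gave -4.71 and -3.78.

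**Figure D3:**
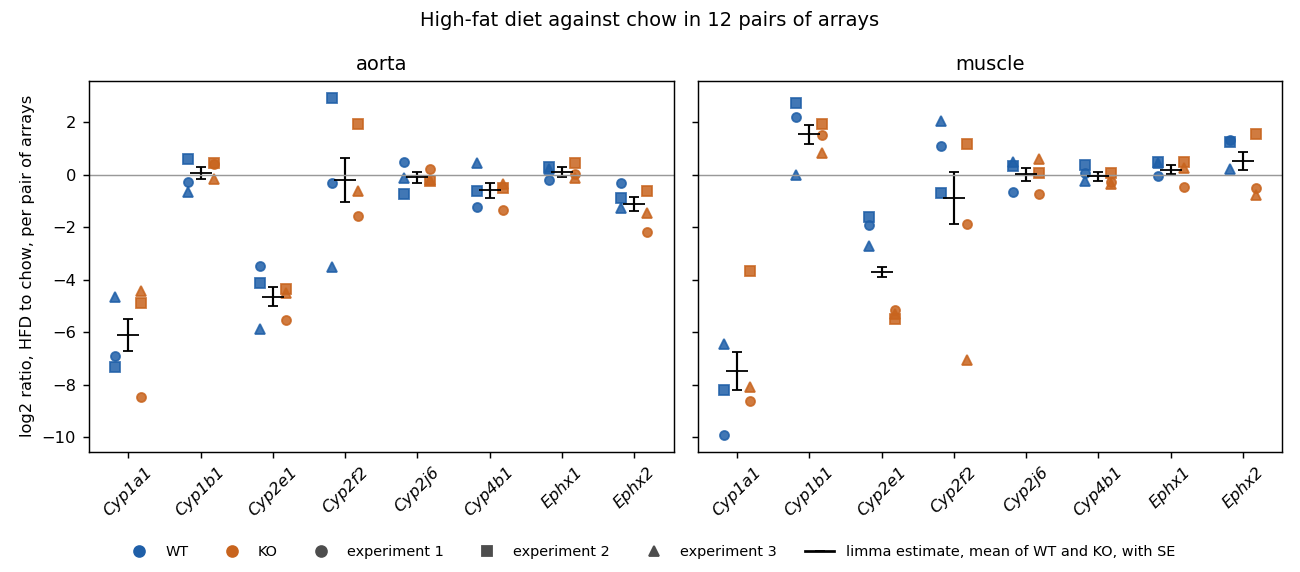
Log2 ratio of HFD to chow for each of the 8 genes in the 6 pairs of aorta arrays and the 6 pairs of muscle arrays (blue WT, orange KO, symbols are experiments), with the limma estimate over both strains and its SE in black. All ratios of Cyp1a1 and Cyp2e1 lie below -1, and the WT and KO ratios of Cyp2e1 in muscle, -2.72 to -1.60 and -5.50 to -5.17, do not overlap.

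Markers of white fat cells stood lower on HFD in the aorta, although 1 of 10 was called. All 10 adipocyte markers tested there lay below 0 on HFD (median -3.62, 8 at unadjusted p under 0.05, as were 15.1% of all probes), with Adipoq at -4.79 (adjusted p = 0.0793) and Car3, carbonic anhydrase of fat and muscle, called at -3.73 (adjusted p = 0.00798). The mean log2 level of 11 such markers with a probe ran from 0.49 to 1.59 on WT chow, 1.05 to 3.09 on KO chow, -2.41 to -0.89 on WT HFD and -1.70 to -0.70 on KO HFD. Lep was not well above background on any aorta array. The part of these markers in the aorta values of Cyp2e1, Cyp1a1 and Ephx2 was not tested. In muscle the same list had a median of -0.46 over 9 markers tested, all 9 below 0, with Adipoq at -0.46 and Cfd alone at unadjusted p under 0.05 (-2.72, adjusted p = 0.109). By strain, the 9 markers in KO muscle, where the fall of Cyp2e1 was steeper, were all below 0 (median -1.02, 4 at unadjusted p under 0.05, 0 called), and in WT muscle 6 of 9 were (median -0.29, 0 at unadjusted p under 0.05). Of all probes, 8.49% in KO muscle and 12.1% in WT muscle were at unadjusted p under 0.05. The part of the adipocyte markers in the muscle values of Cyp2e1 and Cyp1a1 was not tested. Brown fat markers in aorta lay below 0 for 4 of 5 genes (median -1.28, 3 at unadjusted p under 0.05, 0 called). Dio2 lay on the other side, at 2.05 (limma adjusted p = 0.206). In muscle Dio2 stood at 1.92 (limma adjusted p = 0.105), and Cidea and Cox8b at -0.46 and -0.15. The part of the brown fat markers in the values of the members was not tested. Endothelial markers were below 0 for 8 of 8 genes in aorta on HFD (median -0.75, 3 at unadjusted p under 0.05 beside 15.1% of all probes, 0 called) and for 5 of 8 in muscle (median -0.01). Of the 5 liver markers, Apoa1 and Ttr were not well above background on any array. Alb and Ahsg were bright enough to be tested in aorta. They stood there at -0.94 and -0.47 on HFD and were not called (limma adjusted p = 0.605 and 0.42).

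**Figure D4:**
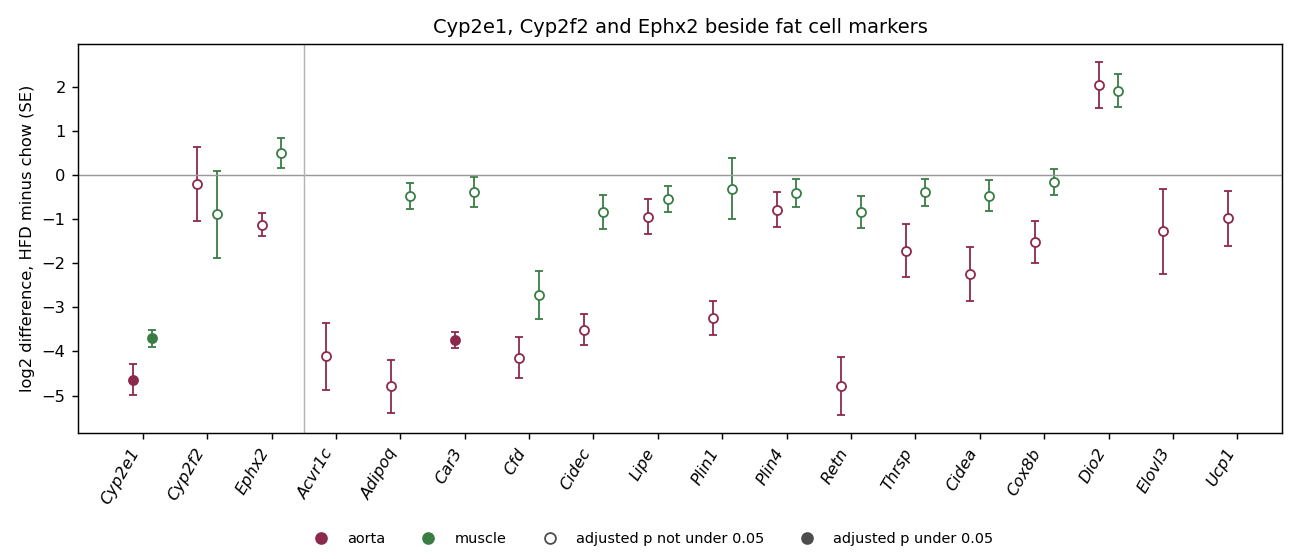
Limma estimate of the diet difference (log2, HFD minus chow, mean of WT and KO) with its SE for Cyp2e1, Cyp2f2 and Ephx2 beside the tested markers of white and brown fat cells, in aorta (purple) and muscle (green). Filled symbols have an adjusted p under 0.05. In aorta Cyp2e1 at -4.64 lies among the white fat markers, whose median is -3.62, and in muscle at -3.70 it lies below all of them. The brown fat marker Dio2 lies above 0 in both tissues, at 2.05 and 1.92.

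Ephx2 was brighter in aorta and leaned lower there on HFD. Aorta arrays read 3.55, 4.63 and 4.43 on WT chow and 3.22, 3.72 and 3.17 on WT HFD. They read 5.50, 4.66 and 4.77 on KO chow and 3.33, 4.04 and 3.30 on KO HFD. Every HFD array was below its chow partner, but the diets overlapped and the difference of -1.13 (SE 0.26, unadjusted p = 0.00376) was not called (adjusted p = 0.181). It was -1.06 without experiment 1. In muscle Ephx2 read -0.41, -1.001 and 0.51 on WT chow, 0.91, 0.24 and 0.74 on WT HFD, 1.47, -1.02 and 0.01 on KO chow and 0.97, 0.53 and -0.77 on KO HFD. The muscle difference was 0.51 (SE 0.34, adjusted p = 0.493), above 0 in 4 of 6 pairs. It was 0.56 without experiment 1, 0.067 without experiment 2 and 0.90 without experiment 3. The difference between the tissues in the diet response, -1.63 (SE 0.45, unadjusted p = 0.00441), was not called either (adjusted p = 0.302).

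Ephx1 stayed in a narrow range on all 24 arrays, from 3.33 to 4.52. Its diet difference was 0.11 (SE 0.18) in aorta and 0.19 (SE 0.18) in muscle, and its second probe gave 0.09 ± 0.20 and 0.13 ± 0.35 (SD, n = 6 pairs). No group mean of Ephx1 differed from its neighbour in rank by more than the larger of their SDs.

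Among the epoxygenases and hydroxylases of fatty acids, Cyp2j6, a relative of the arachidonic acid epoxygenases, ran from -1.49 to 0.04 in aorta and from -1.24 to 0.93 in muscle. Its diet difference was -0.11 (SE 0.22) in aorta and 0.01 (SE 0.24) in muscle. The dimmer of its 2 probes gave the opposite sign in aorta, 0.27 ± 0.68 (SD, n = 6 pairs), so neither direction is read. Cyp4b1, which is best known from the lung, ran from 3.79 to 5.49 in aorta and from 5.25 to 5.88 in muscle. On HFD in aorta Cyp4b1 read 3.79, 4.64 and 5.19 in WT and 4.06, 4.81 and 5.13 in KO, against 5.04, 5.26 and 4.75 and 5.39, 5.32 and 5.49 on chow. That difference of -0.61 (SE 0.28, adjusted p = 0.356) rested mostly on experiment 1, at -1.29, and was -0.26 without it. In muscle the difference was -0.07 (SE 0.16).

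Cyp2f2, a P450 of airway club cells that activates naphthalene, had the largest SD within a group of the 8 members. WT chow aorta read 2.25, -2.34 and 2.86 and WT HFD aorta 1.94, 0.58 and -0.66. KO chow aorta read 2.55, -0.16 and 0.28 and KO HFD aorta 0.98, 1.78 and -0.36. The spread within WT chow aorta (SD 2.84) was thus larger than any diet difference of the gene over both strains, -0.20 (SE 0.84) in aorta and -0.89 (SE 0.98) in muscle, and the sign of the aorta value turned on leaving out experiment 1 (0.17) or 3 (0.74). Muscle readings ran from -7.97 to -0.24, and 2 of 12 were not well above background. In each group at most 2 of the 4 airway markers with a probe, and at most 2 of the 5 liver markers, were well above background on all 3 arrays. Between the tissues the airway marker Scgb1a1 was higher in aorta by 1.84 (SE 0.60, limma adjusted p = 0.0274). The liver marker Ahsg was higher there by 5.79 (SE 0.82, limma adjusted p = 3.79e-05). The other tested markers of these lists were not called between the tissues, with Sftpc at -0.17 and Alb at 1.11. The part of both lists in the Cyp2f2 values was not tested.

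Beyond the 8 members, 83 other genes of the P450 system had a probe. None of the 60 tested in aorta and none of the 55 tested in muscle was called by diet with limma, with 9 and 12 at unadjusted p under 0.05, beside 15.1% and 16.4% of all probes, and medians of -0.04 and -0.04. They comprise fatty acid epoxygenases, xenobiotic and sterol P450s, electron donors, other epoxide hydrolases and the receptors of these genes. Electron donors such as Por, the reductase that feeds microsomal P450s, had 0 of 7 genes at unadjusted p under 0.05 in either tissue.

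Between the strains no member was called. The KO minus WT difference, averaged over diets, lay between -0.06 and 0.86 in aorta and between -0.42 and 0.88 in muscle, with 0 of 8 members at unadjusted p under 0.05 in either tissue (3.39% and 3.27% of all probes) and 0.0116% of all probes called in aorta (0.00773% higher, 0.00387% lower) and 0 of 25682 in muscle. The largest of these values in both tissues was that of Cyp1a1, 0.86 (SE 0.50) and 0.88 (SE 0.77). Because the HFD arrays of experiment 1 stood between the strains, the differences were also taken without it: 0 members were called then too, and the values lay between -0.60 and 0.86 in aorta and between -0.88 and 0.60 in muscle. Cyp2e1 changed sign in both tissues, from 0.24 to -0.60 in aorta and from 0.44 to -0.056 in muscle. The sign also turned for Cyp1b1 and Cyp2j6 in aorta and for Cyp2j6 and Ephx2 in muscle. In the difference of the diet responses between strains, 0 of 8 members were called in aorta or muscle, with 0 and 1 at unadjusted p under 0.05 (2.62% and 4.12% of all probes), the 1 being Cyp2e1 in muscle.

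Between the tissues, 4 of the 8 members were higher in aorta, beside 11.5% of all probes called in that direction, 28.2% in either and 16.7% lower, where no member was called. Cyp1b1 was higher by 6.80 (SE 0.51, adjusted p = 5.51e-08), with 12 aorta arrays from 4.52 to 5.36 (median 4.98) and 12 muscle arrays from -4.45 to 0.13 (median -1.73). Cyp2e1 was higher by 4.54 (SE 0.48, adjusted p = 1.62e-06), Cyp2f2 by 4.13 (SE 1.04, adjusted p = 0.00613) and Ephx2 by 3.85 (SE 0.39, adjusted p = 1.11e-06), whose aorta arrays lay between 3.17 and 5.50 and muscle arrays between -1.02 and 1.47. The arrays of the tissues did not overlap for Cyp1b1 and Ephx2, as for 5.51% of all probes. They overlapped for Cyp2e1, whose KO chow muscle arrays lay in the range of the aorta, and for Cyp2f2. Ephx1 (0.05, SE 0.18) and Cyp1a1 (0.69, SE 0.77) were not called, and Cyp4b1 (-0.58, adjusted p = 0.0522) and Cyp2j6 (-0.67, adjusted p = 0.116) were not called either, where the median probe stood at -0.27. With the replicate block, which pairs the tissues of an experiment, strain and diet, both were called lower in aorta (adjusted p = 0.00784 and 0.00898), as they were without the random block for the slide (0.00578 and 0.0428).

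Markers of other cell types also differed between the tissues, where 11.5% of all probes were called higher in aorta and 16.7% lower. White fat markers were called in both directions, among them Plin1 (3.74) and Adipoq (1.99) higher and Lipe (-1.46) and Thrsp (-2.24) lower. Smooth muscle and pericyte markers were mixed: Myh11 (-1.62) and Rgs5 (-3.70) were called lower, while Acta2 (0.0039) and Pdgfrb (0.09) were not called. All 7 fibroblast markers were called higher in aorta (median 4.31), with mean levels per array of 4.25 to 5.87 in aorta and -0.51 to 3.35 in muscle. So were 4 of 5 brown fat markers, led by Ucp1 at 10.07 (limma adjusted p = 3.5e-08), with Cox8b at 0.92 not called (0.19). The endothelial markers were called lower in aorta for 7 of 8 genes (median -1.06). Pecam1 lay on the same side at -1.03 but was not called (limma adjusted p = 0.0924). All 6 muscle fibre markers were called lower (median -6.46). The part of these cell type markers in the values of the members was not tested. Of the 62 other genes of the P450 system tested, 12 were called higher and 10 lower in aorta, beside 11.5% and 16.7% of all probes. The 3 closely related genes Cyp2b9 (8.04, SE 0.56), Cyp2b13 (6.54, SE 0.55) and Cyp2b10 (5.66, SE 0.51) were higher there with adjusted p from 3.27e-08 to 4.37e-07, although their near-identical sequences mean that the probes may not tell them apart. Cyp26b1, which breaks down retinoic acid, was lower by 2.16 in aorta (log2 difference -2.16, SE 0.37, adjusted p = 0.000298).

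**Figure D5:**
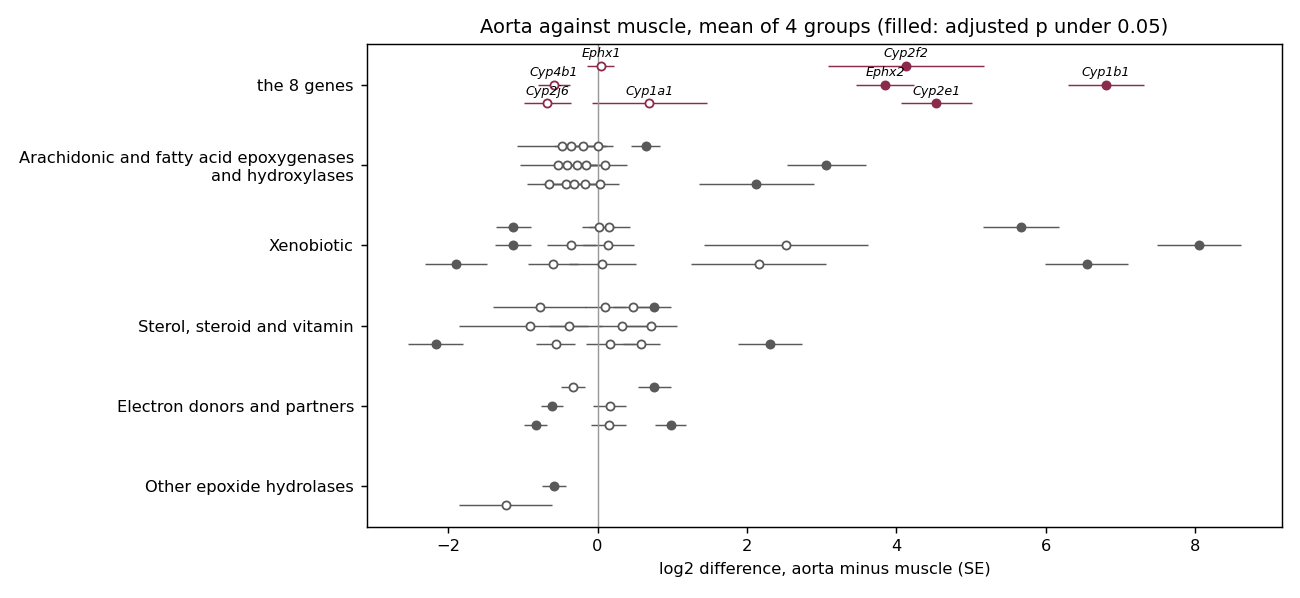
Limma estimate of the tissue difference (log2, aorta minus muscle, mean of 4 groups) with its SE for the 8 genes (purple) and for the tested genes of 5 other lists of the P450 system (grey). Filled symbols have an adjusted p under 0.05. Cyp1b1, Cyp2e1, Cyp2f2 and Ephx2 lie between 3.85 and 6.80, the other 4 of the 8 genes between -0.67 and 0.69, and the 3 points beyond 5 in the xenobiotic list are the Cyp2b genes.

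The order of the 8 groups summed up these patterns gene by gene. For Cyp1a1 the 4 chow groups came first and the 4 HFD groups last, and the single step larger than the larger SD of its neighbours lay between them. For Cyp1b1 and Cyp2f2 the single such step lay between the 4 aorta groups and the 4 muscle groups. For Cyp2e1 the 2 chow aorta groups led (means 2.38 in KO and 2.00 in WT), KO chow muscle (-1.78) stood with the HFD aorta groups (-2.41 and -2.49), and WT chow, WT HFD and KO HFD muscle followed at -3.85, -5.93 and -7.11. For Ephx2 KO chow aorta (4.98) stood above WT chow aorta (4.20), mostly through experiment 1 (5.50 and 3.55). The KO and WT readings were 4.66 and 4.63 in experiment 2 and 4.77 and 4.43 in experiment 3. The strain difference of Ephx2 in aorta was not called. The HFD aorta groups (3.56 and 3.37) followed, and the muscle groups did not differ beyond their spread.

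Over the 24 arrays and 14147 genes searched, the levels most like Cyp1a1 were those of Nr1h3, Aldh6a1 and Cfd (Pearson's r 0.79, 0.79 and 0.78), and those most like Cyp2e1 were Apoc1, Cdo1 and Acsm3 (r 0.93, 0.92 and 0.92). Among the genes most like Cyp1b1 were Efna5 and Frrs1 (r 0.99 and 0.98), and Ephx2 was most like Efna5, Isl1 and Prxl2a (r 0.97, 0.97 and 0.96). Cyp4b1 followed Cd36, Fli1 and Fnbp1l (r 0.95, 0.93 and 0.93), Cyp2j6 followed Taf9, Med21 and Med8 (r 0.93, 0.93 and 0.92), Cyp2f2 followed Map7, Slc1a5 and Serpina3m (r 0.91, 0.91 and 0.90) and the genes most like Ephx1 included Fgg and Mrps7 (r 0.75 and 0.73). The points share tissues, diets and slides, so these values describe the pattern over arrays only.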

How the data were processed

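RNA of sorted cells was amplified, labelled with Cy3 and hybridised to Agilent Whole Mouse Genome arrays. The authors deposited each array's scanner output with processed signals, an intensity already background-corrected by Feature Extraction (version 10.5.1.1 in the file headers, 9.1 in the submitters' processing notes). They also deposited a log2 table, which equals the log2 processed signal plus a constant for each array and served as an alternative. The methods name GeneSpring and Acuity, and give no normalization. Probes share no common scale, so levels were compared within a probe.

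Here outlier and control spots were left out, spots of a probe were averaged, and values were taken as log2 of the processed signal over the 75th percentile of its array (41174 probes, of which 1765 lack a value on at least 1 array; 27198 carry a symbol through RefSeq's gene table). A probe entered a fit if all arrays of any 1 group read it well above background, which left 25865 probes for aorta, 25682 for muscle and 27387 for fits of all arrays. limma 3.58.1 in R 4.3.3 gave moderated estimates with Benjamini-Hochberg adjustment over all these probes, called at 0.05. Diet was fitted within pairs of strain and experiment, per tissue. Strains were fitted on group means without a block, and tissues with the slide as a random block (correlation 0.28). Each slide held the 4 groups of 1 tissue and experiment. The pairing comes from the numbered experiments in the labels and the study's methods. Correlations of deviations within pairs were 0.0072 to 0.45. Bounds compare a group with the lowest signal well above background on each dim array. The number of arrays limits the precision. The fit was tested on simulated arrays without a detection floor, so that test does not cover readings near background.

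The members and lists were chosen with earlier results of these data known. Named genes were the members, Lgals3, at most 5 called P450 system genes in a comparison, up to 4 markers a list in a comparison and the 3 most similar genes by correlation. For Cyp1b1 and Ephx1, 1 of these 3 is not reported here. Alternatives were normexp on the median signal, since the files used hold no mean signal, quantile normalization, the deposited table, filters, all probes of a gene, other blocks and leaving out an experiment. Protein sequences were not analysed here.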

Additional observations from a re-analysis of the deposited data

Results flagged for a closer look

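Ephx2 on HFD in WT mice moved in opposite directions in the tissues: all 3 aorta pairs were lower on HFD (mean ratio -0.83) and all 3 muscle pairs higher (mean ratio 0.93), a difference of -1.76 log2. This difference was not tested for WT alone. Over both strains it was -1.63 (unadjusted p = 0.00441, limma adjusted p = 0.302, not called).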

How the results depend on the processing

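The number of the 8 members called lower on HFD in aorta over both strains was 1, became 2 under normexp, without the replicate block, with the slide as the block and with all 24 arrays in 1 fit, as Cyp1a1 passed (log2 -5.12 under normexp, otherwise -6.12), and was 0 without any 1 experiment. In muscle it was 2, fell to 1 when dim probes were kept, as Cyp1a1 at -7.49 did not pass, and to 0 among probes well above background on every array, where neither gene is tested, and without any 1 experiment. Leaving out an experiment called 0 of all probes in every diet comparison, so it says nothing on stability of the calls; Cyp2e1 then stood at -4.85 to -4.37 in aorta and -3.78 to -3.55 in muscle, and Cyp1a1 at -8.26 to -6.60 in muscle. For single strains, the count in WT aorta was 0 and became 1 without the replicate block and with 24 arrays. In KO aorta it was 0 and became 1 under both and under the strict filter. In WT muscle it was 0 and became 1 under normexp. In KO muscle it was 1, became 2 under normexp, and was 0 under the strict filter, under the methods' t-test and without any 1 experiment (Cyp2e1 -5.41 to -5.24). The methods' t-test on 3 ratios gave 2, 2, 2 and 3 members at p under the threshold of 0.05 in WT aorta, KO aorta, WT muscle and KO muscle, and 0 after Benjamini-Hochberg adjustment. Higher in aorta were 4 members, and 2 under the strict filter, which drops Cyp2e1 and Cyp2f2. With the replicate block, pairing the tissues of a pool, that count stayed at 4 higher, and Cyp2j6 (-0.67, adjusted p = 0.00898) and Cyp4b1 (-0.58, adjusted p = 0.00784) were called lower.

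Signs turned only in differences that were not called. In aorta Cyp2f2 ran from -1.51 to 0.74 with an experiment left out (0.17 without replicate 1), Cyp2j6 from -0.33 to 0.086, Cyp1b1 from -0.18 to 0.29 and Ephx1 from -0.022 to 0.20. Over all probes of a gene Cyp2j6 was at 0.084 there, and under normexp Cyp1b1 was at -0.013. In muscle Cyp2j6 ran from -0.25 to 0.37 (-0.078 without replicate 2) and Cyp4b1 from -0.21 to 0.049. Between tissues Ephx1 ran from -0.030 to 0.096. The cause was not tested.

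Over all probes, the count called ran from 5 to 343 around 8 in aorta and from 1 to 274 around 74 in muscle by diet, and from 5646 to 15402 around 7715 between tissues (3027 to 7186 with an experiment left out). Counts in single strains ran up to 24 and 24 in aorta and 29 and 5 in muscle, and that for the difference between tissues in the diet response up to 25. Of the 12 readings of a gene in muscle, 7 were well above background for Cyp1a1, 9 for Cyp2e1 and 10 for Cyp2f2, which limits the precision of these differences.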
